A study of Xenopus tropicalis with 31 samples.

Results

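Chromatin accessibility of whole regenerating tail tissue was compared between 72hpa (72 hours post amputation, the outgrowth phase) and 24hpa in *Xenopus tropicalis* tadpoles. The comparison was drawn by sample label and used 7 of the 31 ATAC-Seq libraries of the series, which gave 3 all-tissue samples at 72hpa and 3 all-tissue samples at 24hpa. ATAC-Seq uses the Tn5 transposase to insert adapters into open DNA, so the number of fragments over a region measures how accessible it is. The tadpoles are described as carrying the transgene pax6:GFP together with cryga:RFP and actc1:RFP. In it, a pax6 promoter drives GFP, and crystallin and muscle actin promoters drive RFP. The counts of the all-tissue libraries are headed WT, and what WT stands for there is not stated. Tails were cut at NF stage 41 to remove the posterior part, and pools of regrown tips were dissociated and sorted. The all-tissue samples hold GFP+ and GFP- cells collected together, with no selection on GFP, whereas the pax6 samples of the same timepoints, used below for comparison, hold only GFP+ cells, which are enriched for neural progenitors. No animal is tracked from one timepoint to the other, and the labels do not say that the replicates come from separate clutches, so the p-values measure the spread between these samples, which may be partly technical.

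A tadpole tail is regrown in overlapping phases. A wound epidermis closes the stump, inflammatory cells enter and signals such as Wnt, FGF, BMP and Notch are engaged, a bud of progenitors forms, and spinal cord, notochord, muscle and vessels then extend together during outgrowth. Accessible regions near a gene are often promoters or enhancers, but the nearest gene is only a label for a region and need not be the gene it acts on. In a whole-tissue sample, a change in the fraction of cells of a type and a change in accessibility within each cell cannot be told apart.

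Fragments were counted by the authors in 124349 windows of 400 bp centred on peak summits called on all libraries merged. Of these, 124334 held at least 1 CPM (CPM is counts scaled to library size) in at least 2 of the 6 samples and were tested, and 117398 of all windows had a nearest gene. Total counts were 4401013, 6016925 and 6903814 at 24hpa and 7479173, 12902654 and 7618556 at 72hpa. The second 72hpa sample is the deepest because 2 libraries were summed into it. The label of the second library names replicate 1 instead, and its counts correlated about equally with those of all 3 first libraries (Pearson's r of log2 CPM 0.9065, 0.9077 and 0.9121 across windows), so all placements were run. Across windows the samples correlated with each other at 0.8835 to 0.9052 within 24hpa, at 0.9193 to 0.9388 within 72hpa and at 0.8879 to 0.9332 between the timepoints. The range between the timepoints thus overlapped both ranges within them. Each 24hpa sample had fewer counts than any 72hpa sample, and the part of depth in these correlations was not tested. The study's methods also give more sorted cells and more extra PCR cycles for the 72hpa all-tissue libraries than for the 24hpa ones, and these cannot be told apart from time.

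Few windows were called as changed between 24hpa and 72hpa in all-tissue samples. At an adjusted p under 0.05 (edgeR's quasi-likelihood test with Benjamini-Hochberg adjustment over all windows), 3 windows were more accessible at 72hpa and 1 was less accessible, which is 0.00322% of the windows tested (0.00241% higher and 0.000804% lower). The balance between gains and losses was not stable, since 9 of 23 called windows were higher without 24hpa replicate 3, 6 of 17 without 24hpa replicate 1, 1 of 3 without 72hpa replicate 1, 1 of 3 with DESeq2, 9 of 16 by the likelihood ratio test, 3 of 5 with loess offsets and 7 of 19 with a replicate block. The 4 windows called in the main fit lay near rab3gap1, near man1a2, near the gene model Xetrov90021994m.g and on a scaffold where no gene is named. At an unadjusted p under 0.01 there were 1372 windows, or 1.1%, of which 626 were higher and 746 lower, and at an unadjusted p under 0.05 there were 6907, or 5.56%. Were no window changed, a share about equal to each threshold would still fall under it, and both shares are close to that level. The samples of the timepoints did not overlap in 5.62% of windows with 72hpa higher and in 5.40% with 72hpa lower. With 3 samples against 3, such separation is also frequent where nothing changes.

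**Figure D1:**
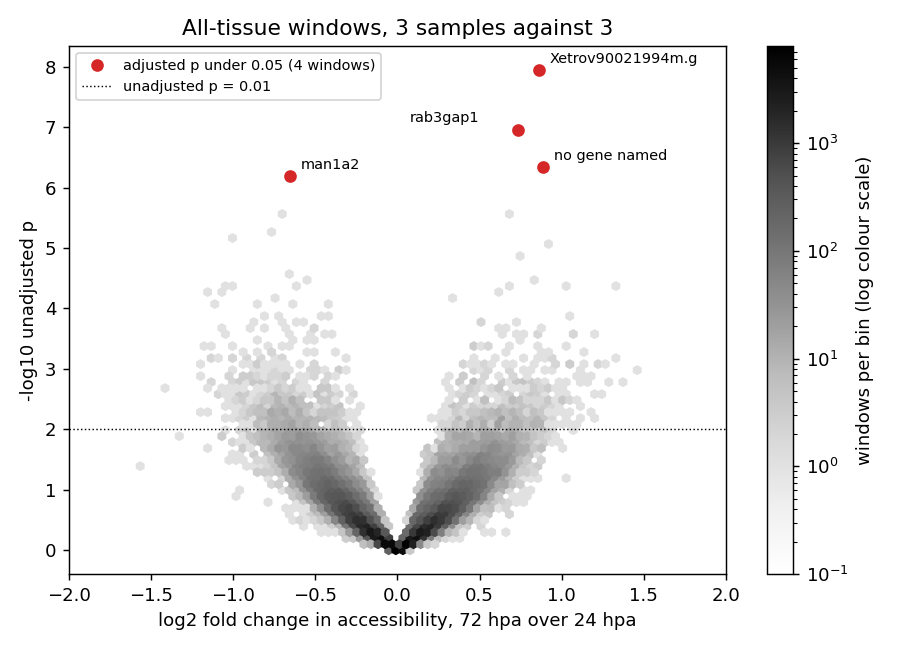
Log2 fold change from 24hpa to 72hpa (x axis) against -log10 of the unadjusted p (y axis) for all 124334 windows, with grey hexagons shaded by the number of windows on a log scale and the 4 called windows in red. The red points stand above the rest by definition, since the called windows are those with the smallest p. The body of windows is spread about evenly around 0.

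For most windows the fitted change in counts was bounded within 2-fold. The 1st and 99th percentiles of the log2 fold change were -0.62 and 0.61, and 0.0748% were beyond 1 in either direction. The median standard error was 0.232 and the 95% interval typically ran 0.469 to either side on the log2 scale (median). For 92.7% of all windows, and for 95.9% of the 10774 windows lying no more than 500 bp from a TSS (transcription start site), the whole 95% interval of the fold change lay within 2-fold. It lay within 1.5-fold for 39.9% of windows, a share that depends on the estimate as well as on the width of the interval. The called changes were themselves below 2-fold, so a limit of 2-fold does not exclude changes of that size at other windows. The share of counts in windows within 500 bp of a TSS was 9.42% ± 0.788 at 24hpa (SD, n = 3) and 9.38% ± 0.416 at 72hpa (SD, n = 3; exact permutation test, two-sided, p = 0.90, where the smallest possible p is 0.10). These windows make up 10774 of the 124334 tested. Median accessibility was 6.913 CPM for windows over a TSS and 4.485 CPM for those beyond 50000 bp. How far the counts stand above background fragments was not tested, and the limits apply to the counts as they are.

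The window with the smallest p lay on chromosome 8 at 101876465-101876864 (xtropicalis 9.0), 16951 bp from the TSS of Xetrov90021994m.g, a gene model with no gene symbol in the files. Its normalised accessibility was 18.8, 20.7 and 21.4 CPM at 24hpa and 38.6, 34.6 and 38.7 CPM at 72hpa. Every 72hpa sample was therefore above every 24hpa sample, by a wide gap. The log2 fold change was 0.86 (SE 0.12, adjusted p = 0.00141, edgeR), which is 1.82-fold with a 95% interval of 1.54 to 2.15. Behind these values were 83, 126 and 147 fragments in the 24hpa libraries and 289, 287, 161 and 293 in the 72hpa ones.

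In bulk tissue this window also stood higher at 6hpa than at 24hpa. The all-tissue means were 18.7 CPM ± 2.49 in uninjured tips (SD, n = 3), 16.4 ± 3.32 at 0hpa (SD, n = 2), 30.8 ± 1.60 at 6hpa (SD, n = 3), 20.3 ± 1.31 at 24hpa and 37.3 ± 2.33 at 72hpa (SD, n = 3 each). The 6hpa samples, at 29.0 to 31.8 CPM, lay above those of uninjured, 0hpa and 24hpa tails and below those of 72hpa. These levels beyond 24hpa and 72hpa are a description. In pax6 cells the window stood at 18.1 ± 1.21 CPM at 24hpa and 22.5 ± 1.16 at 72hpa (SD, n = 3 each), with a log2 fold change of 0.32 (SE 0.14, adjusted p = 0.883, edgeR). The change in all-tissue samples exceeded that in pax6 cells by 0.54 on the log2 scale (SE 0.17, unadjusted p = 0.00377), which was not past the threshold over all windows (adjusted p = 0.847). The window was picked for its all-tissue change, which is part of this difference. Its unadjusted p is therefore biased towards small values. Its 3 neighbours within 20 kb had log2 fold changes of 0.44, -0.05 and 0.21, and none was called. The call held under every alternative run and without any 1 of the 6 samples.

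The second window lay on chromosome 9 at 79055936-79056335, 954 bp from the TSS of rab3gap1, which in mammals encodes the catalytic subunit of the GTPase-activating protein for Rab3, a regulator of vesicle release. The samples were at 35.0, 46.2 and 40.3 CPM at 24hpa and at 77.2, 64.9 and 61.5 CPM at 72hpa. The timepoints did not overlap, and 72hpa replicate 1 was highest. The log2 fold change was 0.74 (SE 0.11, adjusted p = 0.00686, edgeR). The window 724 bp further along, 230 bp from the same TSS, went from a mean of 21.3 to 33.6 CPM with a log2 fold change of 0.63 (SE 0.14), and its adjusted p of 0.313 did not pass. The windows 1494 and 2565 bp along had values of 0.27, without overlap, and 0.13. Windows more than 5 kb away had log2 fold changes between -0.08 and 0.11.

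Over the all-tissue series the rab3gap1 window was lowest at 24hpa. Mean accessibility was 54.2 CPM ± 7.68 in uninjured tips, 62.7 ± 11.4 at 6hpa, 40.5 ± 5.62 at 24hpa and 67.9 ± 8.26 at 72hpa (SD, n = 3 each). At 0hpa it was 65.3 ± 17.1 (SD, n = 2). A window picked for a gain from 24hpa to 72hpa tends to have a low 24hpa mean, so this order is a description. In pax6 cells it was 60.7 ± 12.5 CPM at 24hpa and 51.9 ± 10.4 at 72hpa (SD, n = 3 each), a log2 fold change of -0.21 (SE 0.15, adjusted p = 0.906). The difference between the changes of the tissues was 0.95 on the log2 scale (SE 0.21, unadjusted p = 8.8e-05), with an adjusted p of 0.520 over all windows. This unadjusted p is biased towards small values too, since the all-tissue change that picked the window is part of the difference. The call at rab3gap1 was lost without 72hpa replicate 1 (adjusted p = 0.173) or without 72hpa replicate 2 (adjusted p = 0.0861), and with DESeq2 (adjusted p = 0.0616) or in the fit of all 14 all-tissue samples (adjusted p = 0.418).

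The last of the gains lay on scaffold_475 at 86087-86486, where the files name no nearest gene. It rose from 9.3, 11.0 and 11.5 CPM at 24hpa to 20.2, 20.2 and 19.3 CPM at 72hpa, with no overlap. The log2 fold change was 0.89 (SE 0.15, adjusted p = 0.0193, edgeR). In pax6 cells the same window went from 13.4 ± 3.30 to 19.4 ± 2.48 CPM (SD, n = 3 each), a log2 fold change of 0.52 (SE 0.17, unadjusted p = 0.00673) that did not pass over all windows. Of the 4 called windows this is the one with the largest pax6 value in the same direction, and the interaction of tissue and time was 0.37 (SE 0.22, adjusted p = 0.902). The window 535 bp away had a log2 fold change of 0.32 (SE 0.16), with overlap. Other neighbours within 20 kb were higher at 72hpa without overlap, with log2 fold changes of 0.68, 0.66, 0.65, 0.45, 0.32 and 0.26 at distances of 17223, 10607, 13938, 16237, 8757 and 14607 bp. None of the neighbours was called. Most of them had samples that overlapped, with log2 fold changes from -0.19 to 0.42. Of all windows tested, 5.62% were higher at 72hpa without overlap. The all-tissue call was lost when any 1 of the 6 samples other than 24hpa replicate 3 was left out (adjusted p from 0.0519 to 0.207), and with DESeq2 (adjusted p = 0.131) or in the fit of all 14 all-tissue samples (adjusted p = 0.139).

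The only called loss lay on scaffold_587 at 66681-67080, 513 bp from the TSS of man1a2, which in mammals encodes a Golgi mannosidase that trims N-linked glycans. Its accessibility was 41.1, 43.7 and 42.5 CPM at 24hpa and 26.8, 27.8 and 26.1 CPM at 72hpa. The samples of each timepoint lay within a few CPM of each other and were far from those of the other. The log2 fold change was -0.66 (SE 0.11, adjusted p = 0.0198, edgeR), or 0.634 of the 24hpa level with a 95% interval of 0.543 to 0.740. Its neighbours within 20 kb had log2 fold changes from -0.35 to 0.35, and none was called. The nearest on either side differed in sign, at -0.35 (SE 0.18, adjusted p = 0.902) 7318 bp away and at 0.35 (SE 0.29, adjusted p = 0.949) 7297 bp away, the latter higher at 72hpa without overlap at 2.38 and 3.10 CPM.

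In pax6 cells the man1a2 window was at 38.7 ± 2.06 CPM at 24hpa and at 41.0 ± 1.05 at 72hpa (SD, n = 3 each), a log2 fold change of 0.08 (SE 0.12). The tissues differed by -0.74 on the log2 scale in their change (unadjusted p = 2.7e-05, adjusted p = 0.485). Here as well the window was picked for its all-tissue change, so the unadjusted p is biased towards small values. In all-tissue samples the 24hpa mean of 42.4 ± 1.32 CPM was the highest of the series, above 28.1 ± 8.28 in uninjured tips and 35.1 ± 1.18 at 6hpa (SD, n = 3 each). The 0hpa mean was 27.2 ± 8.09 (SD, n = 2). A window picked for a loss from 24hpa to 72hpa tends to have a high 24hpa mean, so this order is a description. The call was lost without 24hpa replicate 2 (adjusted p = 0.0764) or without any 1 of the 72hpa samples (adjusted p from 0.173 to 0.367), and with DESeq2 (adjusted p = 0.131) or in the fit of all 14 all-tissue samples (adjusted p = 0.588).

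**Figure D2:**
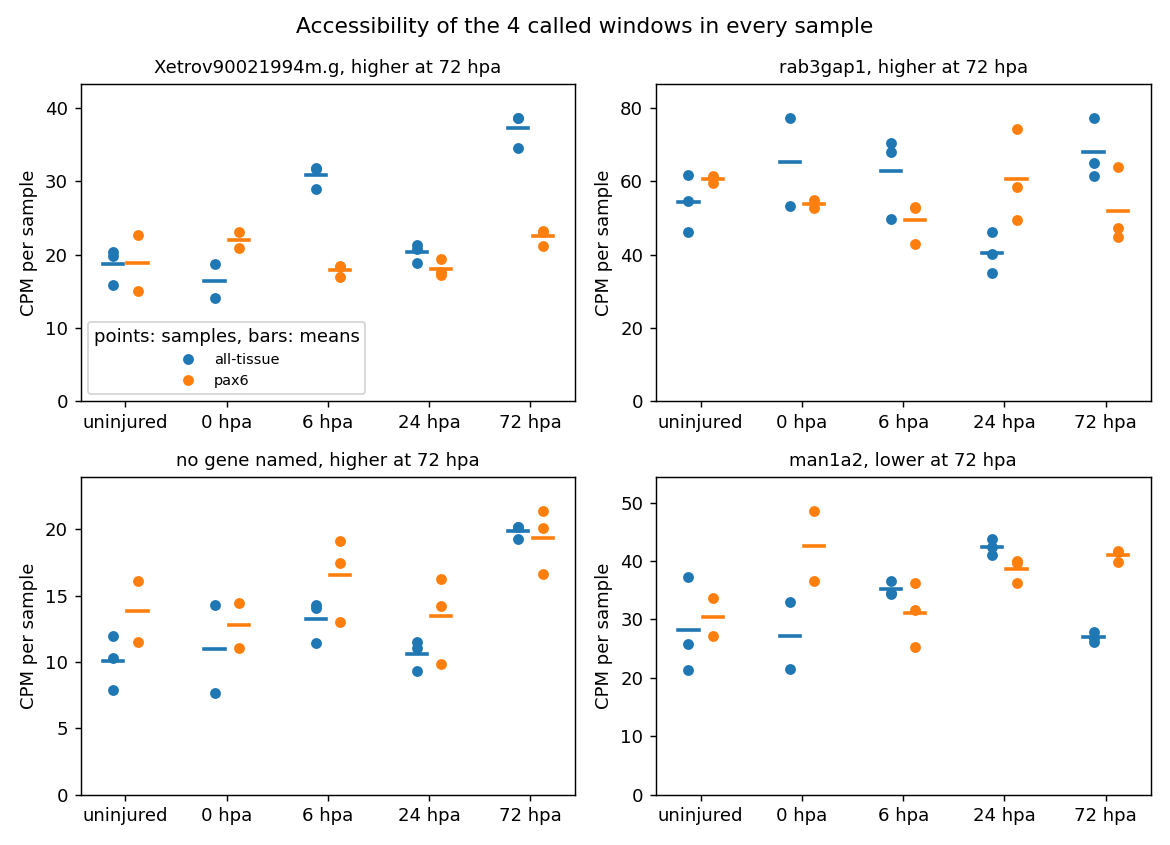
Normalised accessibility (CPM, y axis from 0) of the 4 called windows in every sample by timepoint (x axis), with all-tissue samples in blue, pax6 samples in orange and means as bars. The all-tissue samples of 24hpa and 72hpa, by which the windows were picked, do not overlap in any of the panels. The all-tissue mean of the rab3gap1 window is lowest at 24hpa, and the pax6 samples at the man1a2 window stay near 40 CPM at both timepoints.

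Summing all windows within 10 kb of each TSS gives more fragments per gene. Of 20641 gene loci, 2 were called, rab3gap1 and nek6, both more accessible at 72hpa (0.00969%), and 192 loci, or 0.93%, had an unadjusted p under 0.01 (88 higher, 104 lower). That both were gains did not hold in other fits, since 5 of 15 called loci were higher without 24hpa replicate 1, 2 of 6 without 24hpa replicate 3, 0 of 2 without 72hpa replicate 1, 3 of 7 by the likelihood ratio test, 2 of 4 with loess offsets, 2 of 5 with the second 72hpa library placed with replicate 1 or kept as a 4th sample, and 12 of 39 with a replicate block. The 5 windows of rab3gap1 summed to 99.5, 105.7 and 109.1 CPM at 24hpa and 166.0, 140.7 and 141.5 CPM at 72hpa, a log2 fold change of 0.51 (SE 0.095, adjusted p = 0.0470, edgeR). In pax6 cells the same sum was 131.8, 121.6 and 162.3 CPM at 24hpa and 114.1, 141.5 and 117.1 CPM at 72hpa, with overlap.

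The second called locus, nek6, encodes a kinase that acts in mitotic spindle formation in mammals. Its 2 windows summed to 28.2, 25.0 and 30.7 CPM at 24hpa and 40.5, 38.2 and 49.2 CPM at 72hpa, a log2 fold change of 0.60 (SE 0.11, adjusted p = 0.0470, edgeR). The pax6 samples were at 29.2, 24.6 and 29.9 CPM and then at 30.4, 35.6 and 28.3 CPM. Both loci sat just inside the threshold, and with RLE size factors in place of TMM both had an adjusted p of 0.0511. Both calls were lost without 24hpa replicate 2, 72hpa replicate 1, 72hpa replicate 2 or 72hpa replicate 3 (adjusted p from 0.0546 to 0.807). The 10 windows nearest to nek6 at any distance gave a log2 fold change of 0.23 (adjusted p = 0.680).

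With all windows at any distance assigned to their nearest gene, 7 of 23175 loci were called (0.0302%), 4 higher (0.0173%) and 3 lower (0.0129%). The loci of Xetrov90021994m.g (log2 fold change 0.57), Xetrov90026652m.g (0.34), rab3gap1 (0.42) and lcp2 (0.50) rose, and those of man1a2 (-0.44), Xetrov90028359m.g (-0.54) and LOC101732978 (-0.31) fell. lcp2 encodes an adaptor of antigen receptor signalling in lymphocytes of mammals. Its call rested on windows beyond 10 kb, and the window within 10 kb had a log2 fold change of -0.28 (SE 0.26). Of these loci, rab3gap1 was the only one also called from windows within 10 kb, where the adjusted p was 0.0738 for man1a2, 0.0991 for Xetrov90028359m.g, 0.480 for Xetrov90026652m.g and 0.997 for Xetrov90021994m.g, LOC101732978 and lcp2. The Xetrov90026652m.g locus is the same single window in both sets, and that window had an adjusted p of 0.339 in the test of windows.

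The windows with the smallest p after the called ones are given as values, since none passed in this fit. Among higher windows with a named gene and no overlap between the timepoints, the nek6 window 8812 bp from the TSS came first. It was at 22.5, 19.4 and 22.0 CPM at 24hpa and at 33.7, 30.1 and 40.3 CPM at 72hpa, with a log2 fold change of 0.70 (SE 0.13, adjusted p = 0.0573, edgeR). It passed in 5 of the 19 settings, among them those with the second 72hpa library placed with replicate 1, as its label names it (adjusted p = 0.0349), or left out (adjusted p = 0.0244). A window 21616 bp from lcp2 was at 5.2, 8.4 and 9.0 CPM and then at 15.8, 14.4 and 13.7 CPM (log2 fold change 0.91, SE 0.18, adjusted p = 0.109) and passed in 2 of the settings. Next came windows nearest to tfam-like (0.85), a name shared with the mitochondrial transcription factor, and to efcab6 (1.04), a gene of EF-hand calcium-binding protein.

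Further down the same order were windows nearest to fucolectin (log2 fold change 1.07), a fucose-binding lectin, olig2 (0.90), a transcription factor of motor neuron and oligodendrocyte progenitors, rpl38 (0.76), a ribosomal protein, fam177b (0.73), ehmt2 (1.07), a histone H3 lysine methyltransferase, tgfbr3 (0.83), a TGF-beta co-receptor, and g3bp1 (1.22), a stress granule protein. Their adjusted p-values ran from 0.525 to 0.569. The olig2 window, 60066 bp from the TSS, was at 4.1, 3.3 and 3.8 CPM at 24hpa and at 6.7, 6.8 and 7.3 CPM at 72hpa. The samples did not overlap, as was true of 5.62% of all windows in this direction. Of the 12 higher windows, 1 was within 1 kb of a TSS and 11 were more than 5 kb away.

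Lower windows were taken in the same way, with a named gene and no overlap. A window 11800 bp from rnf25-like, named after a RING-type ubiquitin ligase, was at 29.3, 24.0 and 27.9 CPM at 24hpa and at 20.3, 12.4 and 15.4 CPM at 72hpa (log2 fold change -0.78, SE 0.15, adjusted p = 0.103, edgeR). It too passed in 5 of the 19 settings, with an adjusted p of 0.00960 when the second 72hpa library was placed with replicate 1. A window 14050 bp from ergic2, which encodes a protein of the compartment between endoplasmic reticulum and Golgi, was at 7.9, 5.6 and 10.3 CPM and then at 3.6, 3.8 and 4.4 CPM (-1.04, SE 0.22, adjusted p = 0.2999). The others were nearest to hsf2bp (-0.61), atp5o (-0.74), a subunit of mitochondrial ATP synthase, c11orf30-like (-0.65), npc1l1 (-0.73), a cholesterol transporter, loxl4 (-0.72), a collagen crosslinking enzyme, pcdh1 (-0.51), a protocadherin, cbs (-0.80), an enzyme of cysteine synthesis, prdx5 (-0.52), a peroxiredoxin, and nr1i2 (-0.43), a xenobiotic receptor. Their adjusted p-values ran from 0.303 to 0.569. Of the 12 lower windows, 1 was within 1 kb of a TSS and 8 were more than 5 kb away, where most windows lie. Among the latter were those of pcdh1, at 345078 bp, and loxl4, at 54926 bp. A lower window nearest to the gene model Xetrov90028359m.g is outside this order, since the model has no gene symbol. It was not called in the main fit but passed in 7 of the 19 settings, with log2 fold changes there from -0.76 to -0.70.

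**Figure D3:**
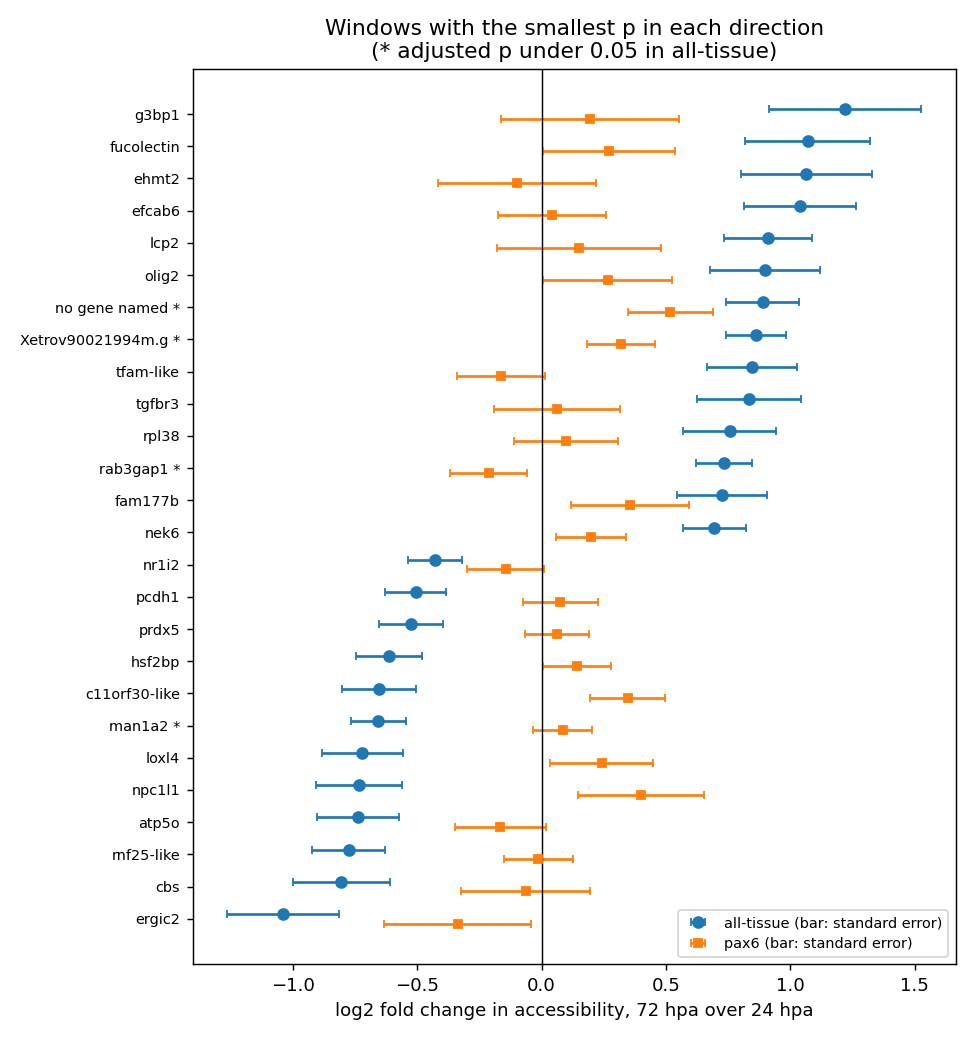
Log2 fold change from 24hpa to 72hpa (x axis) of the 4 called windows (starred) and the windows next in order of p in each direction (y axis, nearest gene), in all-tissue samples (blue circles) and pax6 samples (orange squares), with bars for 1 standard error. The windows were chosen for small p-values in the all-tissue samples, and the pax6 values of the same windows lie between -0.34 and 0.52.

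The pax6 samples share no library with the all-tissue ones and cover the same windows and interval. They hold only GFP+ cells, so they measure another cell population and do not repeat the all-tissue comparison. Among the 12 higher windows with a named gene, 9 also had a positive pax6 log2 fold change, and among the 12 lower windows 5 had a negative one. The pax6 values ranged from -0.21 to 0.36 for the higher windows and from -0.34 to 0.40 for the lower ones. Over the 1372 windows at an unadjusted p under 0.01, 681 (49.6%) moved in the same direction in pax6 cells, against 62123 of the 124328 windows tested in both tissues, so the share was close to that of all windows. By the same test, 0 of 124331 windows were called between 72hpa and 24hpa in pax6 cells, with 6971 (5.61%) at an unadjusted p under 0.05 and 1267 (1.02%) under 0.01 (edgeR).

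The difference between the tissues was also tested directly, as the interaction of tissue and time. Of 124337 windows, 0 were called, with 7048 (5.67%) at an unadjusted p under 0.05 and 1432 (1.15%) under 0.01 (edgeR). The smallest p-values belonged to a pair of windows nearest to gap43, which encodes a protein of axonal growth cones, where the all-tissue change was below the pax6 change by 1.27 (SE 0.22, adjusted p = 0.209) and 1.23 (SE 0.22, adjusted p = 0.356) on the log2 scale. In pax6 cells these windows also had the smallest p-values. Their pax6 log2 fold changes were 0.98 (SE 0.15, adjusted p = 0.156) and 0.83 (SE 0.14, adjusted p = 0.267, edgeR), and these gains are part of the differences. Without pax6 72hpa replicate 3, a library with no fragment in 174 windows against 2 to 8 in the other samples of these timepoints, 0 windows were called as well.

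Gene lists for 8 cell types and 9 pathways or functions were described by their counts. The windows of a list are those nearest to its genes at any distance, and the ones named below lie up to 429237 bp from the TSS. None of the 17 lists held a called window, and their smallest adjusted p was 0.565. The share of windows at an unadjusted p under 0.01 ran from 0% (Notch) to 1.88% (Hox), on either side of the 1.1% of all windows, and the list medians ran from -0.05 to 0.02. For 88.6% to 94.9% of the windows of each list, the 95% interval of the fold change lay within 2-fold. The summed CPM of the 3 samples overlapped between the timepoints for 16 of the 17 lists. The exception was Wnt, at 3651 to 3789 CPM at 24hpa and 3630 to 3638 at 72hpa, a gap that is small beside the spread within 24hpa.

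**Figure D4:**
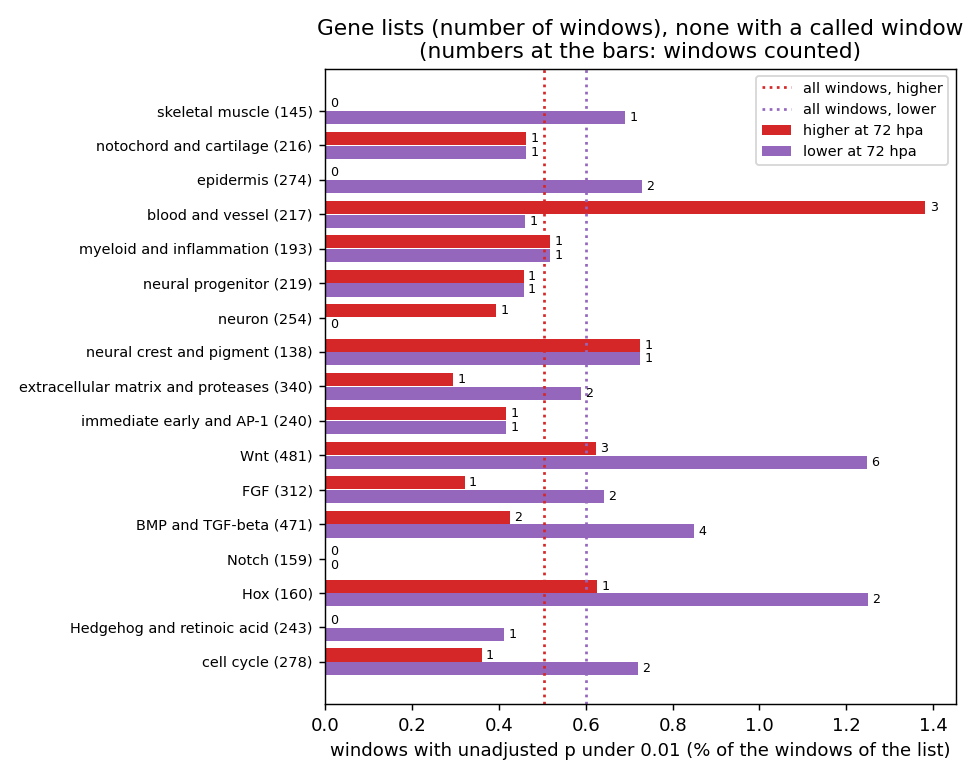
Share of the windows of each gene list (y axis, with the number of windows) that had an unadjusted p under 0.01 in the comparison of 72hpa with 24hpa (x axis, % of windows), higher in red and lower in purple, with the counts at the bars and dotted lines for all windows tested. Each bar stands for 0 to 6 windows, none of them called.

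The promoter windows found for markers of tail tissues gave no called change. Each of the 8 cell type lists held 8 to 28 promoter windows within 500 bp of a TSS. Of 19 marker symbols looked for, 8 had such a window. None was found under myod1, mylpf, tp63, krt5, pax6, elavl3, tal1, gata1, spi1, sox10 or tbxt, the last being another symbol for brachyury. Means at 24hpa and 72hpa were 3.12 and 4.31 CPM for actc1 (muscle actin), 4.45 and 4.81 for krt12 (keratin), 4.74 and 4.11 for col2a1 (notochord and cartilage collagen), 2.33 and 3.68 for t (brachyury), 7.04 and 6.27 for sox9 (cartilage), 4.91 and 6.29 for kdr (a vessel receptor), 7.05 and 7.18 for cebpa (myeloid) and 7.92 and 7.77 for sox2 (neural progenitors). Their adjusted p-values were all above 0.9, and the median window stood at 5.17 CPM, so actc1, t, krt12, col2a1 and, at 24hpa, kdr lay below it.

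Skeletal muscle genes, which encode the contractile apparatus and its regulators, had 1 lower window among 145 at an unadjusted p under 0.01. It lay 20417 bp from tnnt1, a troponin, at 12.3, 15.1 and 12.8 CPM at 24hpa and 10.3, 11.0 and 7.8 CPM at 72hpa (log2 fold change -0.46, adjusted p = 0.884). Epidermal genes had 2 lower and 0 higher among 274 windows and the lowest median of the lists (-0.05). The first of these was a krt12 window 9510 bp from the TSS, at 12.9, 15.8 and 16.0 CPM and then at 11.2, 9.9 and 7.7 CPM (-0.65, SE 0.17, adjusted p = 0.672). The 3 windows of krt12 within 10 kb summed to a log2 fold change of -0.39 (SE 0.12, adjusted p = 0.817), whereas the krt12 promoter window had a value of 0.15.

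Blood and vessel genes had 3 higher windows and 1 lower among 217. The higher ones were nearest to prox1, a regulator of lymphatic fate (0.73, adjusted p = 0.820), flt4, a VEGF receptor of lymphatic vessels, and apln, a ligand of vessel sprouting. The flt4 window was at 3.9, 4.6 and 3.8 CPM at 24hpa and 6.4, 7.1 and 5.3 CPM at 72hpa, and the apln window at 2.5, 2.0 and 1.5 CPM and then at 3.6, 2.8 and 4.6 CPM. Neither overlapped between the timepoints, as was true of 5.62% of all windows and 5.07% of this list in this direction. Both had an adjusted p of 0.862. The lower one, at pecam1, an endothelial adhesion molecule, had a log2 fold change of -0.32 (SE 0.12, adjusted p = 0.884).

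Neural lists held few such windows. Neural progenitor genes had 1 higher window (olig2) and 1 lower window (gsx1, a dorsal progenitor factor, -0.63) among 219. Neural crest and pigment genes had 1 higher (foxd3, 0.90) and 1 lower (tfap2b, -0.74) among 138. Myeloid and inflammatory genes had 1 higher, near cebpe, a granulocyte factor (0.80, adjusted p = 0.814), and 1 lower, at the promoter of socs1, a brake on cytokine signalling (-0.59), among 193. Notochord and cartilage genes had 1 higher (sox6, 0.53) and 1 lower (nog, a BMP antagonist, -0.75) among 216.

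Wnt genes had 3 higher and 6 lower among 481 windows, and 3 of the lower windows belonged to rnf43, a transmembrane ubiquitin ligase that clears Frizzled receptors from the cell surface and so restrains Wnt signalling. At the rnf43 promoter the samples were at 5.7, 6.2 and 5.8 CPM at 24hpa and 3.6, 4.2 and 3.4 CPM at 72hpa. The window 736 bp from the TSS was at 8.4, 5.8 and 6.4 CPM and then at 2.8, 5.3 and 4.2 CPM, and the one 3933 bp away at 12.49, 12.004 and 7.13 CPM and then at 7.5, 6.7 and 6.3 CPM. The timepoints did not overlap at the first and second of these and overlapped at the third. Of all windows, 5.40% were lower at 72hpa without overlap, and of the Wnt list 4.99%. Their log2 fold changes were -0.63, -0.65 and -0.60, with adjusted p-values from 0.856 to 0.862. The 4 windows of the rnf43 locus summed to -0.40 (SE 0.12, adjusted p = 0.733), the smallest p of any listed locus, and the pax6 value of that sum was -0.20 (adjusted p = 0.889).

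The other Wnt windows were in both directions. Windows nearest to the ligand genes wnt3a (-0.63) and wnt11 (-0.69) and to notum (-0.27), which encodes a secreted enzyme that inactivates Wnt ligands, were lower. Windows nearest to wnt9a (0.64), wnt6 (0.64) and the receptor gene fzd2 (0.63) were higher. The notum window is among the more accessible ones, at 135, 115 and 110 CPM at 24hpa and 93.5, 102 and 102 CPM at 72hpa. The samples did not overlap, as was true of 5.40% of all windows in this direction, and the adjusted p was 0.856.

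In the other signalling lists the shares were again on either side of the 1.1% of all windows. FGF genes had 1 higher and 2 lower among 312 windows (0.962%), and BMP and TGF-beta genes 2 higher and 4 lower among 471 (1.27%). The FGF windows were nearest to etv1 (0.63), fgf9 (-0.79) and fgf11 (-0.56). BMP and TGF-beta genes had tgfbr3 (0.83) and tgfb1 (0.71), a ligand, against fstl1 (-0.49) and nog (-0.75), secreted antagonists, and id4 (-0.69) and acvr2a (-0.66), a BMP target and an activin receptor. Notch genes had none in 159 windows, and the smallest p was at a window 69632 bp from hes4 (-0.63, adjusted p = 0.884). Hedgehog and retinoic acid genes had 1 lower, near disp1, which releases Hedgehog ligand (-0.70).

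Hox and cofactor genes had 1 higher (hoxb9, 0.69) and 2 lower (hoxc4, -0.70, and pbx2, -0.98) among 160 windows. Cell cycle genes had 1 higher (ccnd1, 0.72) and 2 lower (cdk2, -0.84, and cdk6, -0.70) among 278. Extracellular matrix genes and proteases had 1 higher (adamts18, 0.64) and 2 lower (adamts9, -0.94, and lama2, -0.79) among 340. These lay 429237, 16638 and 176568 bp from the TSS of adamts18, adamts9 and lama2. Immediate early genes had 1 higher (nr4a2, 0.62) and 1 lower (gadd45g, -0.65) among 240. All of these values had an adjusted p above 0.8.

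The windows nearest to the TSS of 4 transcription factor genes that the study follows in neural regeneration were not called. The etv1 window, 1689 bp from the TSS, was at 4.8, 3.3 and 6.0 CPM at 24hpa and 5.9, 8.0 and 7.8 CPM at 72hpa, with a log2 fold change of 0.63 (SE 0.22, adjusted p = 0.859, edgeR). The timepoints overlapped. The runx2 promoter was at 7.3, 5.9 and 6.1 CPM and then at 8.5, 7.3 and 8.4 CPM (0.33, SE 0.20). The pbx3 promoter was at 2.3, 2.6 and 2.5 CPM and then at 3.7, 2.9 and 3.6 CPM (0.43, SE 0.29), without overlap but at a low count. Of all windows, 5.62% were higher at 72hpa without overlap. The meis1 window, 630 bp from the TSS, was at 9.54, 10.03 and 8.87 CPM and then at 8.7, 9.0 and 8.4 CPM (-0.11, SE 0.18), so its 95% interval runs no further than 0.36 on either side of that value. In pax6 cells runx2 had a log2 fold change of -0.52 (SE 0.22, unadjusted p = 0.0259, edgeR), and no window was called there. The difference between the tissues at runx2 was 0.85 (unadjusted p = 0.00572, adjusted p = 0.860). For etv1 the pax6 log2 fold change was 0.33. Mean pax6 accessibility went from 4.10 to 3.93 CPM at pbx3 and from 6.64 to 6.57 CPM at meis1. The runx2 value is singled out for its small unadjusted p.

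The share of windows with small p-values varied with position. Of the 30256 windows on unplaced scaffolds 1.51% had an unadjusted p under 0.01, against 0.974% of the 94078 windows on the 10 chromosomes. By distance the share was 1.16% for windows over a TSS, 1.41% up to 500 bp away, 1.29% from there to 5000 bp, 1.07% from there to 50000 bp and 0.84% beyond, and 1.67% where no gene was named. Windows on scaffolds were also deeper, with a median of 6.70 CPM against 4.87, and the part of depth in the share was not tested. Both the called loss and the gain with no gene named lay on such scaffolds.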

How the data were processed

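Per the study's methods, the authors trimmed and aligned the reads to xtropicalis 9.0, removed duplicates, called peaks on all libraries merged, and deposited whole-number counts of fragments per 400 bp window, with no normalisation. The counts were deposited per library, and 2 pax6 libraries with almost no counts were left out. The deposited tables of fold changes and p-values between groups were not used, other than for window positions, nearest genes and distances to the TSS. The members and lists were chosen with earlier results of these data known.

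The second 72hpa library, which its label ties to replicate 1, was summed with 72hpa replicate 2, so that sample pools libraries of both labels. Counts were tested with edgeR 4.0.16 (TMM, quasi-likelihood F test, robust) in R 4.3.3, after a minimum of 1 CPM in 2 samples, with Benjamini-Hochberg adjustment over all windows and a threshold of 0.05. Printed CPM values were TMM-normalised over the 27 samples kept, and fold changes come from the fit. Locus counts were sums over windows within 10000 bp. Named windows were the 12 per direction with the smallest p (no overlap, named gene), the smallest p of each list, and the windows nearest to the TSS of 4 regulators. Windows named beyond these, including the other list windows at p under 0.01, were chosen after their values were seen. DESeq2 1.42.0 and other filters, scalings, placements and left-out samples were alternatives. The fit was also run on simulated counts that share 1 dispersion over all windows. Such counts do not test how calls depend on outlying samples. Intervals cover these samples only. No genome of the build was used here, so no sequences or motifs were read. One result among the gene lists is not reported here.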

Additional observations from a re-analysis of the deposited data

How the results depend on the processing

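All 4 called windows kept their direction in all 19 settings in which windows were fitted, and the calls at adjusted p under 0.05 held in 19 of them for the Xetrov90021994m.g window, 15 for rab3gap1, 13 for man1a2 and 12 for the window with no gene named. Against 4 windows, 16 were called by edgeR's likelihood ratio test, 1 in the fit of all 14 all-tissue samples, and 7 with the second 72hpa library placed with replicate 1 or kept as a 4th sample, and 1372 had an unadjusted p under 0.01. With DESeq2 3 were called, of which only the Xetrov90021994m.g window is among the 4. Leaving out 1 sample gave 1 to 23 windows, with 17 without 24hpa replicate 1, 23 without 24hpa replicate 3, 1 without 72hpa replicate 2 and 2 without 72hpa replicate 3. Windows called in any setting numbered 52.

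Against 2 gene loci, 0 were called with RLE size factors or in the fit of 14 samples, 1 with DESeq2 or with the second 72hpa library left out, 4 with loess offsets or at an adjusted p under 0.1, 5 with that library placed with replicate 1 or kept as a 4th sample, 7 by the likelihood ratio test or over all windows nearest to the gene, and 192 at an unadjusted p under 0.01. Leaving out 1 sample gave 0 to 15 loci (15 without 24hpa replicate 1, 6 without 24hpa replicate 3, and 0 without 24hpa replicate 2, 72hpa replicate 2 or 72hpa replicate 3). In pax6 cells, leaving out 1 sample gave 0 to 2 windows (2 without 72hpa replicate 3, 1 without 72hpa replicate 1 and 1 without 72hpa replicate 2).

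The main fit did not use the replicate numbers as pairs. Deviations of same-numbered samples correlated at 0.082, 0.044 and 0.064, and those of different numbers at -0.061 to 0.004. Each sample thus correlated best with its own number, though weakly, and the number of calls depends on this choice. A replicate block called 19 windows and 39 loci in all-tissue samples and 0 windows in pax6 cells, and the 4 windows were among the 19. The difference in TSS share ranged from -0.443 to 0.343 percentage points when 1 sample was left out and was positive without 72hpa replicate 1 (0.161) or without 24hpa replicate 3 (0.343). The causes were not tested. The 95% intervals hold both counting error and spread between samples, and the part of depth in their width was not tested.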
